A study of Mus musculus with 10 samples.

Results

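The genes described here are 8 that define the projection neurons of the striatum or carry their signals: the neuropeptide precursors Tac1, Penk and Pdyn, the dopamine receptors Drd1 and Drd2, the adenosine receptor Adora2a, the phosphatase regulator Ppp1r1b and the transcription factor Foxp1. They were taken by name from 28059 gene identifiers counted by RNA sequencing in mouse brain at stage E18.5, shortly before birth, with the olfactory bulbs taken off, and all 8 passed the filter on low counts. The labels give 5 genotypes of 2 libraries each: brains heterozygous for COP1 (COP1 het control, here control), brains without COP1 (COP1 KO), without COP1 and cJun (COP1.cJun DKO), without COP1, cJun and ETV1 (COP1.cJun.ETV1 TKO), and without COP1, cJun, ETV1 and ETV5 (COP1.cJun.ETV1.ETV5 QKO). The controls thus also carry 1 altered COP1 allele, and no library is of wild-type genotype. What drives the deletions, and whether the 2 libraries of a genotype came from separate litters, is not given in the sources used here, so p-values measure the spread between these libraries, which may be technical.

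The striatum is built mainly of inhibitory projection neurons of 2 kinds. Neurons of the direct pathway carry the dopamine receptor DRD1 and make substance P (from Tac1) and dynorphin (from Pdyn), whereas neurons of the indirect pathway carry DRD2 and the adenosine receptor ADORA2A and make enkephalin (from Penk). Both kinds use DARPP-32, the product of Ppp1r1b, downstream of dopamine, and both express FOXP1 while they differentiate. None of these genes is confined to the striatum: Tac1, Penk and Pdyn are also transcribed in hypothalamus, brainstem and the dorsal horn of the spinal cord, and Foxp1 in cortex. COP1 is an adaptor of a ubiquitin ligase that directs cJun and 3 factors of the ETS family (ETV1, ETV4 and ETV5) to degradation, and cJun is a subunit of the AP-1 transcription factor.

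Because the targeted factors bind DNA, the available promoters of the 8 genes were searched for 4 short motifs on both strands. The motifs were the AP-1 site TGANTCA, the full cAMP response element TGACGTCA, the variant TGCGTCA known from the enkephalin promoter, which AP-1 and CREB proteins can bind, and the ETS site CCGGAAG. The RefSeq tables for GRCm38.p6 held 9 promoters of 5 of the genes (Tac1, Pdyn, Drd1, Drd2 and Foxp1). They held none of Penk, Adora2a or Ppp1r1b, which were not searched. Each promoter ran from 250 bases before to 50 after a transcription start. The 1 match lay in the promoter of Tac1, a TGCGTCA on the strand of the gene from -199 to -193, counted from the start. It is shown with the upstream promoter of Drd1, a gene of the same class of neuron that held 0 matches. The Tac1 promoter lies at chr6:7554811-7555110 on the plus strand and that of Drd1 at chr13:54055609-54055908 on the minus strand. Capitals mark the match.
Tac1: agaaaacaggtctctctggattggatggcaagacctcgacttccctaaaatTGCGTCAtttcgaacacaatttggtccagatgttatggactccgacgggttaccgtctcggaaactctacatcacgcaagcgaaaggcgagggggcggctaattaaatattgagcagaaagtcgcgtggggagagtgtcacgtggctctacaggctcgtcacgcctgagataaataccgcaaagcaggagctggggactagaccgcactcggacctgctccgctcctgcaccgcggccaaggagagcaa
Drd1: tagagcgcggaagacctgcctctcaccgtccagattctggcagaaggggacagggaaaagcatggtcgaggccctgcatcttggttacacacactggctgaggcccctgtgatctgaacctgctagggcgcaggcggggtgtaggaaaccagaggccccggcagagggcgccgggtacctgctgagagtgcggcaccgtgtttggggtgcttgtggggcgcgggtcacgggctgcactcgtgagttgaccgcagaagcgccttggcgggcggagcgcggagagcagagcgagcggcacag
Of all 32851 promoters of this length, 2.12% held TGCGTCA on either strand, 7.81% held TGANTCA, 1.79% held TGACGTCA and 8.86% held CCGGAAG. A match of letters is a description and shows no binding.

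Library totals ran from 31996944 to 54594523 counts, and between 142 counts (Pdyn in QKO 2) and 9517 counts (Foxp1 in KO 1) fell on each of the 8 genes. Control 1 and DKO 1 had Xist, which is transcribed from an inactive X, at 1840 and 1464 CPM (each gene's counts scaled to a common library total), and the other 8 libraries were at 1.94 CPM or below, so that sex is unbalanced in comparisons that set KO, TKO or QKO against either control or DKO. Jun, at 51.5 to 55.98 CPM in control and KO, was at 4.98 to 10.2 CPM in DKO, TKO and QKO, as labelled. Cop1 read 4.74 nRPKM or more in control and 3.57 to 4.39 in all other libraries (nRPKM is a level per length of gene, RPKM rescaled by size factor). Etv1 was 4.82 and 4.95 nRPKM in control, 1.76 to 2.29 in KO and DKO, 3.67 and 3.80 in TKO and 4.38 and 4.71 in QKO, the last 2 genotypes being those labelled as without ETV1. Etv5 was 6.72 and 7.24 nRPKM in control, 2.65 to 3.93 in KO, DKO and TKO and 3.97 and 4.11 in QKO, which is labelled as without it. Counts over a whole gene do not show whether the deleted part is read, so these values do not check the loss of COP1, ETV1 or ETV5, and directions given for TKO and QKO rest on their labels. The tissue had the markers of forebrain: the summed level of 13 genes of striatal neuron identity, among them Bcl11b, Meis2 and Foxp2, lay between 165 and 188 nRPKM in every library.

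Tac1 and Penk, the 2 peptide precursors with the highest levels among the 3, were lowest in the COP1 KO genotype. Tac1 (gene 21333), which encodes substance P and neurokinin A, stood at 21.8 and 21.2 nRPKM in the 2 control libraries and at 14.9 in both KO libraries. It was 17.4 and 18.6 nRPKM in DKO, 19.1 and 22.3 in TKO and 20.03 and 20.4 in QKO. The KO libraries lay below all other libraries, DKO below control, TKO and QKO, and the range of TKO overlapped those of control and QKO. In means, Tac1 went from 21.5 ± 0.426 nRPKM (SD, n = 2) in control to 14.9 ± 0.0462 in KO, 18.03 ± 0.852 in DKO, 20.7 ± 2.26 in TKO and 20.2 ± 0.278 in QKO. Tac1 fell 1.43-fold in KO vs control (log2 -0.52 ± 0.09 SE, edgeR adjusted p = 0.0254). It rose 1.35-fold in QKO vs KO (0.43 ± 0.09, edgeR adjusted p = 0.0426), and in QKO vs control it stood at -0.09 ± 0.09, with a 95% interval of -0.28 to 0.10. Without any 1 of the 4 libraries compared, Tac1 was at -0.55 to -0.51 in KO vs control and at 0.43 to 0.45 in QKO vs KO and was not called. RNA of a whole brain does not tell fewer cells of a type from less RNA per cell, here and in all that follows.

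Penk (gene 18619), the precursor of the enkephalins, stood at 18.8 and 19.7 nRPKM in control and at 14.2 and 13.1 in KO. It was 14.2 and 15.7 nRPKM in DKO, 15.4 and 16.4 in TKO and 16.7 and 15.8 in QKO. Both control libraries lay above all 8 knockout libraries, and neighbouring knockout genotypes overlapped except KO and DKO, whose nearest libraries were 14.15 and 14.18 nRPKM. Penk fell 1.40-fold in KO vs control (log2 -0.49 ± 0.08 SE, edgeR adjusted p = 0.0289), and without any 1 of the 4 libraries it was at -0.55 to -0.44 and not called. Its differences from control in the other genotypes were -0.36 ± 0.08 in DKO (edgeR adjusted p = 0.153), -0.27 ± 0.08 in TKO (0.339) and -0.24 ± 0.08 in QKO (0.554), none of which passed. In QKO vs KO Penk was at 0.24 ± 0.08 (adjusted p = 0.27), which did not pass either. As a share of the control mean, Tac1 stood at 69.3% in KO and 94.01% in QKO, and Penk at 70.7% and 84.4%. Whether the 2 genes differed from each other in these steps was not tested.

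Pdyn (gene 18610), the precursor of the dynorphins, was the least abundant peptide gene and varied most between libraries. It stood at 5.64 and 6.96 nRPKM in control, 6.89 and 5.80 in KO, 7.32 and 7.52 in DKO, 5.38 and 6.93 in TKO and 6.01 and 4.21 in QKO. DKO was above all other libraries, and the other 4 genotypes overlapped in the order QKO, TKO, control, KO. The difference in KO vs control was 0.03 ± 0.19, with a 95% interval of -0.39 to 0.44, whose lower end stops short of the changes of Tac1 and Penk. In QKO vs KO Pdyn was at -0.33 ± 0.19 (edgeR adjusted p = 0.591).

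**Figure D1:**
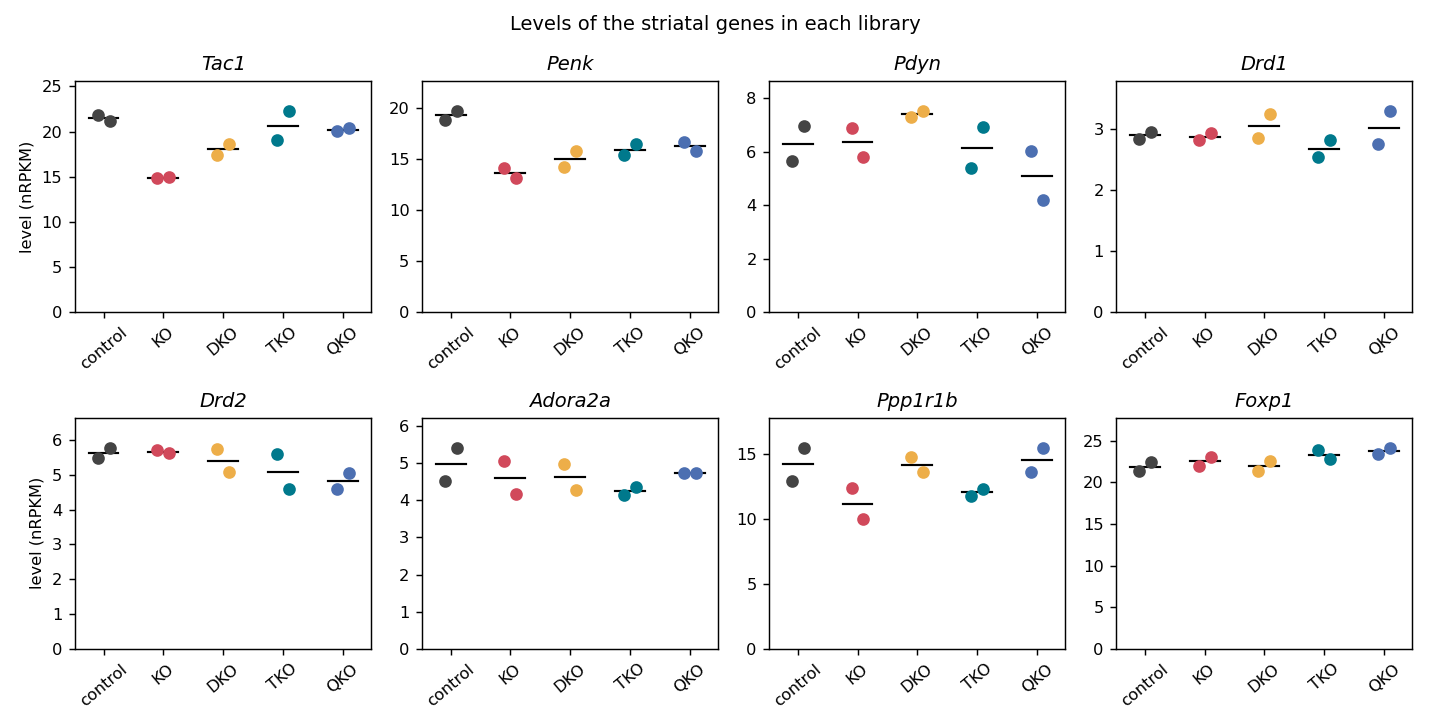
Level of each of the 8 genes in nRPKM (vertical axes from 0) in the 2 libraries of each genotype; points are libraries and bars are means. Tac1 lies at 14.9 in both KO libraries against 21.2 and 21.8 in control, Penk lies highest in the 2 controls, and the ranges of Drd1 overlap between neighbouring genotypes.

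The receptors that name the 2 pathways showed no call in any of the 8 comparisons. Drd1 (gene 13488), the dopamine receptor of direct pathway neurons, stood at 2.85 and 2.96 nRPKM in control, 2.82 and 2.94 in KO, 2.86 and 3.25 in DKO, 2.54 and 2.82 in TKO and 2.75 and 3.30 in QKO. All neighbours in its order (TKO, KO, control, QKO, DKO) overlapped. The difference in KO vs control was -0.00 ± 0.11, with a 95% interval of -0.24 to 0.24.

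Drd2 (gene 13489), the dopamine receptor of indirect pathway neurons, stood at 5.49 and 5.78 nRPKM in control, 5.73 and 5.63 in KO, 5.74 and 5.08 in DKO, 5.59 and 4.60 in TKO and 4.61 and 5.06 in QKO. KO lay within the control range and both QKO libraries lay below it, and neighbouring genotypes overlapped. In KO vs control Drd2 was at 0.02 ± 0.12 (95% interval -0.23 to 0.27) and in QKO vs control at -0.22 ± 0.12 (-0.48 to 0.04). Adora2a (gene 11540), the adenosine receptor of the same neurons, stood at 4.53 and 5.42 nRPKM in control, 5.05 and 4.17 in KO, 4.98 and 4.27 in DKO, 4.15 and 4.35 in TKO and 4.74 and 4.73 in QKO. Neighbouring genotypes in its order overlapped, and the difference in KO vs control was -0.09 ± 0.12 (95% interval -0.36 to 0.17). The intervals of Drd1 and Drd2 in that comparison reach neither the change of Tac1 nor that of Penk, that of Adora2a ends short of both, and the differences between genes were not tested.

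Ppp1r1b (gene 19049), which encodes DARPP-32, an inhibitor of protein phosphatase 1 when dopamine signalling has phosphorylated it, had its lowest value in KO. It stood at 12.9 and 15.4 nRPKM in control, 12.4 and 9.95 in KO, 14.7 and 13.6 in DKO, 11.8 and 12.3 in TKO and 13.6 and 15.4 in QKO. KO and TKO overlapped and lay below the other genotypes, which overlapped each other. The differences were -0.33 ± 0.12 in KO vs control (edgeR adjusted p = 0.345), 0.33 ± 0.12 in DKO vs KO (0.28) and 0.36 ± 0.12 in QKO vs KO (0.234), and none passed. Foxp1 (gene 108655), a forkhead factor of striatal and cortical neurons, was the most abundant and least variable of the 8, from 21.3 nRPKM in DKO 1 to 24.2 in QKO 2. All neighbours in its order (control, DKO, KO, TKO, QKO) overlapped. Its difference in KO vs control was 0.05 ± 0.06 (95% interval -0.08 to 0.18) and in QKO vs control 0.12 ± 0.06 (-0.02 to 0.25).

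**Figure D2:**
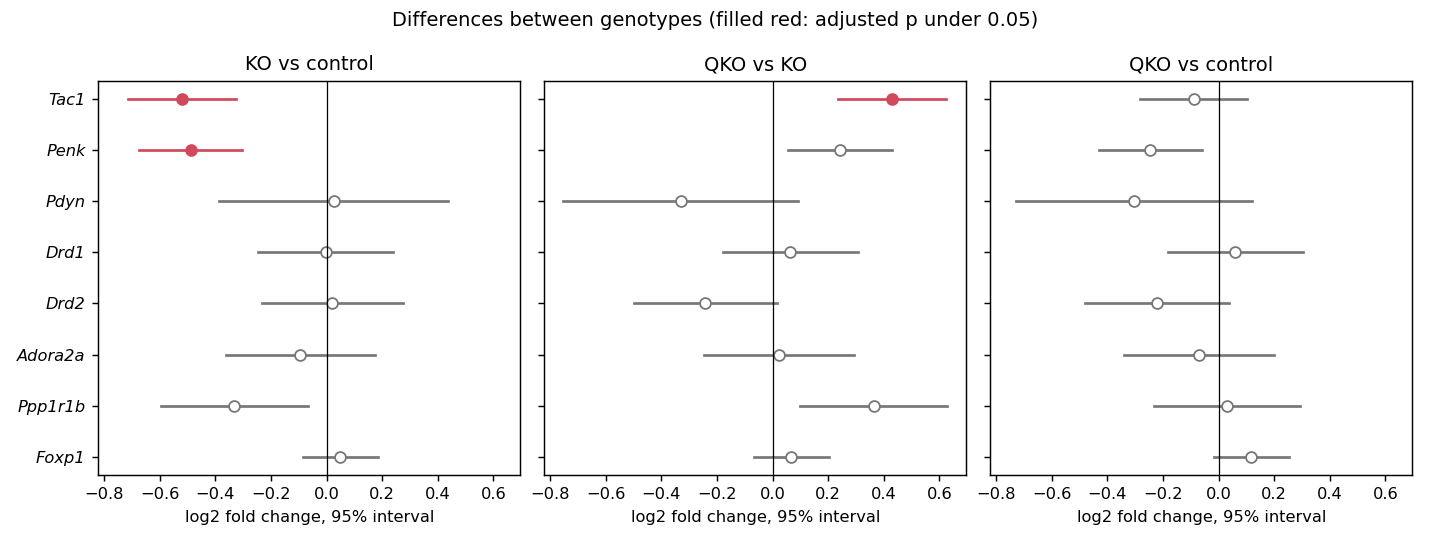
Log2 fold change (points) with its 95% interval (lines) for the 8 genes in 3 comparisons; filled red points have an edgeR adjusted p under 0.05. Tac1 and Penk are the filled points in KO vs control at -0.52 and -0.49, Tac1 alone is filled in QKO vs KO at 0.43, and no gene is filled in QKO vs control.

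KO vs control asks what the loss of COP1 changes. Of the 8 genes 2 were called, both lower, against 0.734% of all 18671 genes tested called in either direction and 0.23% called lower. The median log2 fold change of the 8 was -0.05, against 0.01 over all genes tested. QKO vs KO asks what removing cJun, ETV1 and ETV5 changes in brains without COP1: 1 of the 8, Tac1, was called, higher, against 1.29% of all genes in either direction and 0.353% higher, and the median of the 8 was 0.07. Both comparisons use the same KO libraries, so a low value there enters both. The 8 genes were chosen with earlier results of these data known, so their counts beside these shares are a description and no test of the set.

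Between neighbouring steps edgeR called 0 of the 8. In DKO vs KO 0.568% of all genes were called. At an unadjusted p under 0.05, 2 of the 8, Tac1 (0.27 ± 0.09) and Ppp1r1b, were higher, against 973 of all 18671 genes. In TKO vs DKO 0.0911% were called. Tac1 (0.20 ± 0.09) was the 1 gene of the 8 higher at the same unadjusted threshold, against 1307 of all genes. In QKO vs TKO 0.289% were called and 0 of the 8 reached an unadjusted p under 0.05. Of all genes, 411 were higher and 668 lower at that threshold. Against control, the calls among the 8 were 0 in QKO (0.236% of all genes), DKO (0.423%) and TKO (0.15%). Penk in each of the 3, and Tac1 in DKO (-0.25 ± 0.09), were lower at an unadjusted p under 0.05. Of all genes, 654, 721 and 797 were lower at that threshold in QKO, DKO and TKO. DESeq2 also called 0 of the 8 in these 6 comparisons. The rise of Tac1 between KO and QKO was thus called over the whole span and not for any single step. Tac1 stood at -0.04 ± 0.09 in QKO vs TKO, the last step, and TKO vs KO was not among the 8 comparisons.

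Read as pathways, the summed nRPKM of Tac1, Pdyn and Drd1 (direct) over that of Penk, Drd2 and Adora2a (indirect) gave log2 ratios of 0.07 and 0.01 in control and -0.02 and 0.05 in KO. The ratio was 0.15 and 0.23 in DKO, 0.10 and 0.34 in TKO and 0.14 and 0.13 in QKO. Control and KO overlapped, and the libraries of the other 3 genotypes all lay above both on this scale. In summed CPM TKO 1 (-0.3259) lay just below KO 2 (-0.3255), and as a mean of log2 nRPKM TKO 1 (-0.15) lay below control 1 (-0.14) and QKO 2 (-0.14) below KO 2 (-0.09), so the split was lost on both other scales. The sums are carried mostly by the peptide genes, which are also transcribed outside the striatum, so they do not measure striatal pathways alone. The log2 ratio of Tac1 over Penk alone was 0.21 and 0.11 in control, 0.07 and 0.19 in KO, 0.30 and 0.24 in DKO, 0.31 and 0.44 in TKO and 0.26 and 0.37 in QKO, and shows the same split as summed nRPKM. That of Drd1 over Drd2 ran from -1.02 to -0.94 over control and KO and from -1.14 to -0.62 over the rest, which overlap. These ratios are descriptions with no test, and the split was noticed after their values were seen.

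Other genes of the striatum and of peptide signalling were read from lists chosen with earlier results of these data known. Of all 18671 genes, 1162 were higher and 786 lower in KO vs control at an unadjusted p under 0.05. Of 13 transcription factor genes of striatal neuron identity, edgeR called 0 in KO vs control, with 1 higher (Sp9, 0.42 ± 0.11) and 1 lower (Zfp503, -0.34 ± 0.09) at an unadjusted p under 0.05, while DESeq2 called Sp9. The most abundant of them were Meis2 (-0.13 ± 0.07), Bcl11b (0.18 ± 0.09) and Foxp2 (0.01 ± 0.09), and the median was -0.02. Of 13 genes of striatal signalling, edgeR and DESeq2 called 0, with 2 higher (Pde1b and Arpp21) at an unadjusted p under 0.05 and a median of 0.06. Among these, the phosphatase gene Ptpn5 was at -0.06 ± 0.06, Gnal, the G protein that couples dopamine and adenosine receptors to adenylyl cyclase, at 0.06 ± 0.08, and Pde1b, a phosphodiesterase gene, at 0.18 ± 0.06. In QKO vs KO edgeR and DESeq2 called 0 in both lists. At an unadjusted p under 0.05, 3 were higher and 2 lower in the identity list and 1 higher and 1 lower in the signalling list. Of all 18671 genes, 887 were higher and 1261 lower at that threshold. Sp9, Zfp503 and Arpp21, and further on Tacr3, Oprk1, Pcsk2, Th and Slc6a3, are named because of their values, outside the rule for named genes.

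Of 9 tested genes that encode other tachykinins, other opioid precursors or the receptors of both families, edgeR and DESeq2 called 0 in KO vs control. Their median was -0.16, and 4 were lower at an unadjusted p under 0.05, against 786 of all 18671 genes. These 4 were Pnoc, the precursor of nociceptin (-0.38 ± 0.09, adjusted p = 0.101), its receptor gene Oprl1 (-0.13 ± 0.06), the neurokinin receptor gene Tacr3 (-0.37 ± 0.10) and Oprk1, the receptor of dynorphin (-0.60 ± 0.17). Of 10 genes that process or store neuropeptides, 0 were called by either tool, all 10 had a negative value and 3 were lower at an unadjusted p under 0.05, with a median of -0.07. Among them, Pcsk2, a convertase that cleaves opioid precursors, was at -0.23 ± 0.06 (adjusted p = 0.128) and Cpe, a carboxypeptidase gene, at -0.01 ± 0.07. Scg5, which encodes the chaperone of that convertase, rose in QKO vs KO (0.91 ± 0.11, edgeR adjusted p = 0.00217) and in QKO vs control (0.82 ± 0.11, 0.0149), from 60.5 to 66.9 nRPKM in control and KO to 98.4 and 134 in the 2 QKO libraries. Drd4 (0.03 ± 0.32) and Drd5 (-0.52 ± 0.26) were each below 1 nRPKM and uncalled, and Drd3 did not pass the filter.

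**Figure D3:**
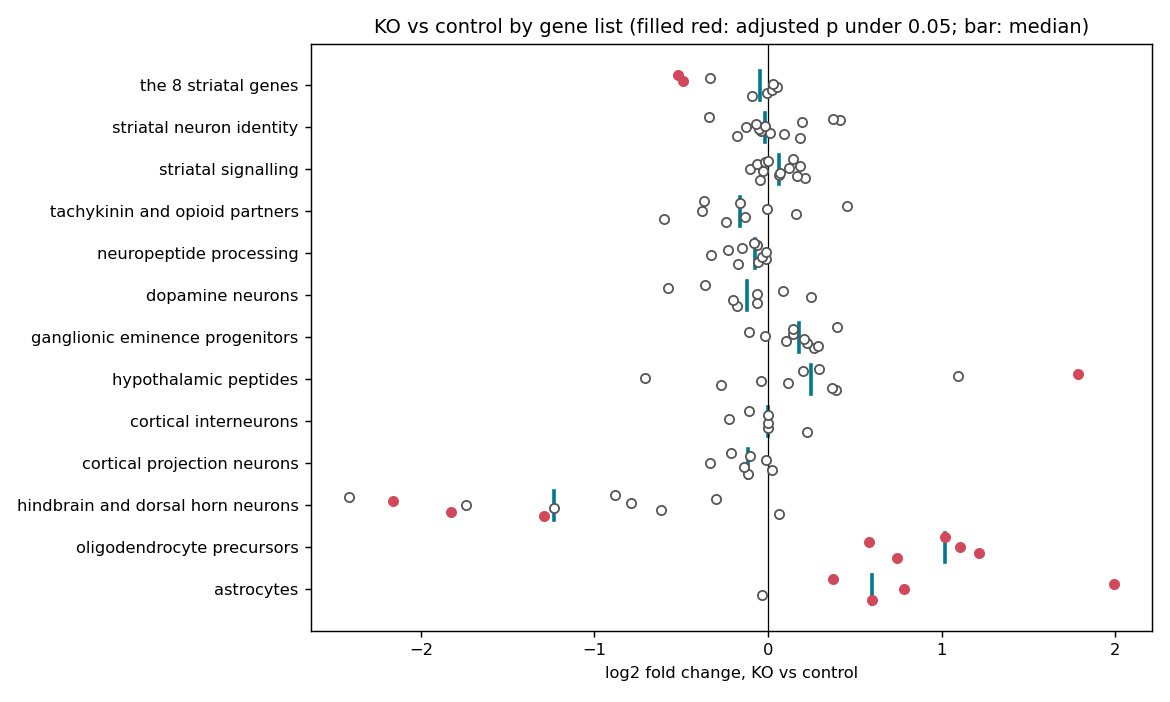
Log2 fold change in KO vs control of the 8 striatal genes and of 12 other lists; points are genes, filled red at an edgeR adjusted p under 0.05, and bars are medians. The striatal lists centre near 0 (medians -0.02 and 0.06), the hindbrain list lies to the left (-1.24), and the lists of oligodendrocyte precursors (1.02) and astrocytes (0.60) to the right.

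Markers of other regions and cell types moved with KO as well. Of 11 genes of hindbrain and dorsal horn neurons, where Tac1, Penk and Pdyn are also transcribed, 3 fell in KO vs control, among them Lbx1 and Atoh1, 10 had negative values and the median was -1.24. Their summed level ran from 55.4 to 57.02 nRPKM in control, 38.4 to 39.4 in KO, 41.5 to 43.1 in DKO, 40.9 to 47.7 in TKO and 42.9 to 48.7 in QKO, with the list carried by Slc17a6, a glutamate transporter gene not confined to the hindbrain. HOX genes, which mark the caudal hindbrain and spinal cord, summed to between 13.6 and 19.3 nRPKM in control, 0.774 and 1.81 in KO, 1.94 and 3.77 in DKO, 6.31 and 8.34 in TKO and 2.27 and 14.02 in QKO. Of the 13 HOX genes tested, 6 fell in KO vs control, and DESeq2 called 7. Hoxa5, Hoxb1, Hoxb6, Hoxb7, Hoxb8 and Hoxc5 had 0 counts in 1 or more libraries. In QKO vs KO, where Tac1 rose, edgeR called 0 of the HOX genes and DESeq2 3, with 12 higher at an unadjusted p under 0.05. Of the hindbrain list edgeR called 0 and DESeq2 1, with 4 higher at that threshold, against 887 of all 18671 genes.

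The libraries of DKO and QKO let these levels be set beside those of the peptide genes. In mean HOX log2 CPM, taken relative to the control mean, KO stood at -2.87 and -3.86, DKO at -2.85 and -2.17, TKO at -0.77 and -1.12, and QKO at -0.16 and -2.83. QKO 2, with a HOX level near those of KO 1 and DKO 1, had Tac1 at 20.4 nRPKM, against 14.9 in KO 1 and 17.4 in DKO 1. Penk in the same 3 libraries was 15.8, 14.2 and 14.2 nRPKM. These libraries also differ in genotype, and the part of HOX level in the differences was not tested. The 2 QKO libraries, far apart in HOX level, were at 20.03 and 20.4 nRPKM in Tac1 and 16.7 and 15.8 in Penk. The 2 TKO libraries, closer to each other in HOX level, were at 19.1 and 22.3 in Tac1 and 15.4 and 16.4 in Penk. With the HOX level as a covariate, the change in KO vs control was -0.56 ± 0.16 for Tac1 (edgeR adjusted p = 0.133) and -0.32 ± 0.15 for Penk (0.284), and neither passed. The standard errors were larger than without the covariate, which is itself tied to genotype. Nor was Tac1 called in QKO vs KO with the covariate.

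**Figure D4:**
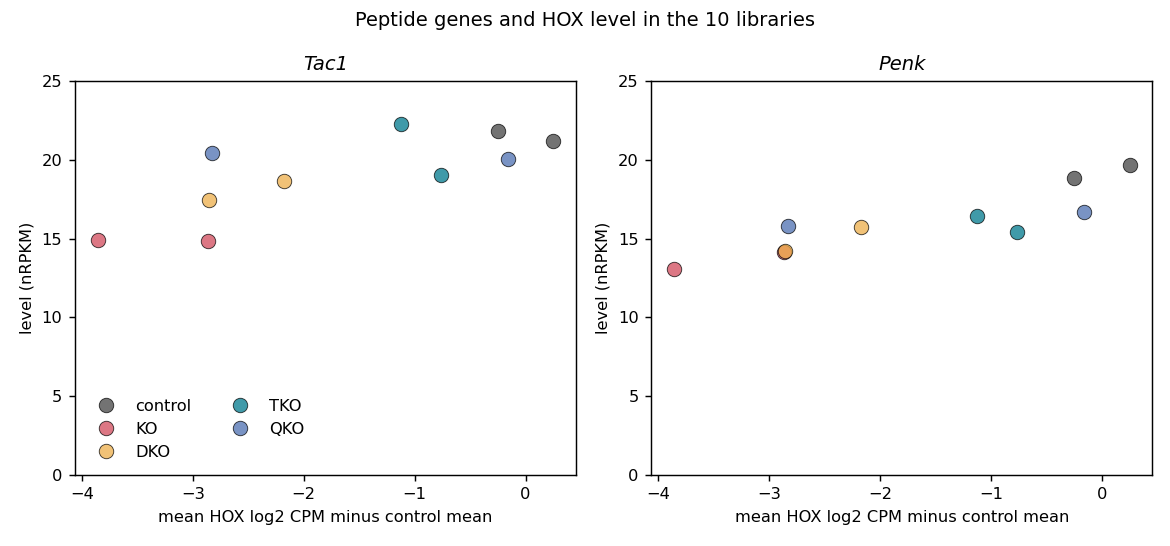
Level of Tac1 (left) and Penk (right) in nRPKM against the mean log2 CPM of 13 HOX genes relative to the control mean, with 1 point per library coloured by genotype. The 2 KO libraries are lowest in Tac1 at 14.9, while QKO 2, with a HOX level of -2.83, is at 20.4; Penk of KO 1 and DKO 1 lies at almost the same point.

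Of the other lists, genes of oligodendrocyte precursors (5 of 5 called) and astrocytes (4 of 5) rose in KO vs control, with summed levels of 147 to 172 and 171 to 186 nRPKM against 71.3 to 82.1 and 123 to 125 in control. In QKO vs KO the same lists had 5 and 4 genes that fell, with sums of 65.3 to 73.5 and 103 to 109.7 nRPKM in QKO. Each edgeR count of 0 calls that follows is for KO vs control, with the unadjusted count beside it. Of all 18671 genes, 1162 were higher and 786 lower at an unadjusted p under 0.05. The list for ganglionic eminence progenitors, the source of striatal neurons, includes genes not confined to them, such as Gad1 and Gad2. It had 0 of 10 called, 3 higher at an unadjusted p under 0.05 and a median of 0.18. The summed level of this list was 152.6 to 162.8 nRPKM in control and 172.05 to 173.6 in KO. In DKO, TKO and QKO it ran from 149.9 to 168.7, so that KO was highest, unlike for Tac1. Genes of midbrain dopamine neurons had 0 of 8 called, 1 higher and 2 lower (Th and Slc6a3, at -0.36 ± 0.14 and -0.58 ± 0.17). Cortical projection neurons had 0 of 7 called and 1 lower, Neurod6 (-0.33 ± 0.09), which DESeq2 called, and 6 had negative values. Their summed level was 255.8 to 257 nRPKM in control, 222 to 224 in KO, 249.6 to 276 in DKO, 243 to 248.8 in TKO and 253 to 286 in QKO, so that KO was lowest, as for Tac1. Neurod6 rose in QKO vs KO (0.43 ± 0.09, edgeR adjusted p = 0.0363). Cortical interneurons had 0 of 6 called and 1 higher, amygdala and septum 0 of 5 and 0, blood 0 of 4 and 0, and pituitary 0 of 4 tested and 0, and DESeq2 called 0 in each of these, in the progenitors and in the dopamine neurons. Of 10 hypothalamic peptide genes Oxt rose in KO vs control (1.78 ± 0.34, edgeR adjusted p = 0.0407) from 0.361 and 0.493 nRPKM in control to 1.60 and 1.33 in KO, and 2 of the 10 were higher at an unadjusted p under 0.05 (DESeq2 called 0). The part of these cell types in the levels of the 8 genes was not tested.

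The calls of Tac1 and Penk in KO vs control were those of a fit that shares its spread over all 10 libraries. Leaving out control 1, control 2, KO 1 or KO 2 left neither gene called, with log2 fold changes of -0.55 to -0.51 for Tac1 (edgeR adjusted p 0.134 to 0.239) and -0.55 to -0.44 for Penk (0.141 to 0.257). Without both libraries with high Xist, so that control is 1 library assumed to vary like the other groups, Tac1 was at -0.51 ± 0.11 and Penk at -0.53 ± 0.10, and neither passed. With the level of Xist as a covariate Penk passed (-0.53 ± 0.09, adjusted p = 0.032) and Tac1 did not (-0.53 ± 0.10, 0.0617). The call of Tac1 in QKO vs KO was lost without any 1 of the 4 libraries (0.43 to 0.45, adjusted p 0.081 to 0.29) and kept without the libraries with high Xist, which belong to neither group (0.44 ± 0.09). By DESeq2 all 3 calls stood, with adjusted p of 0.000667 and 0.000752 for Tac1 and Penk in KO vs control and 0.00942 for Tac1 in QKO vs KO.

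**Figure D5:**
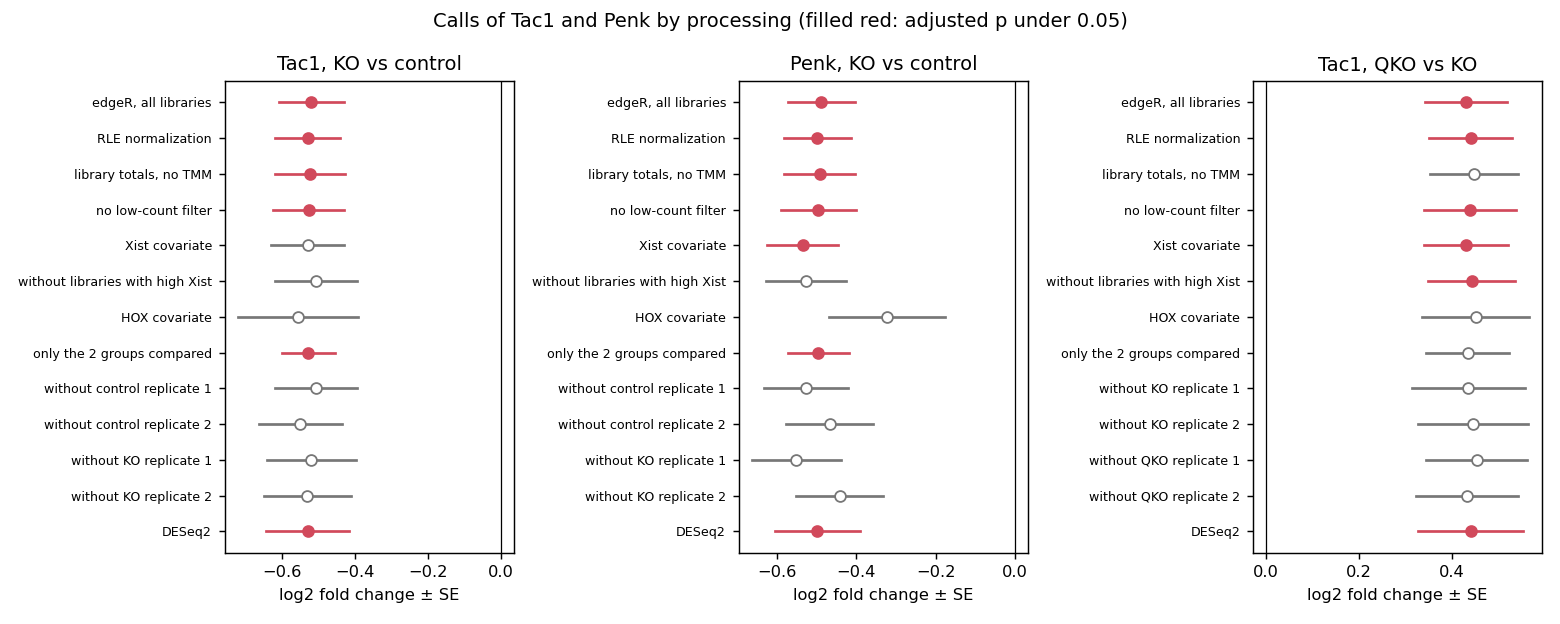
Log2 fold change with its standard error of Tac1 and Penk in KO vs control and of Tac1 in QKO vs KO, for the edgeR fit over all libraries and 12 alternatives each; filled red points have an adjusted p under 0.05. All points lie on the same side of 0, and the fits that leave out 1 library are unfilled.

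Last, the genes whose log2 CPM profiles over the 10 libraries came closest to each of the 8 were found by the root mean square difference of centred profiles among 14803 other genes. Closest to Tac1 were Ctxn2 (0.0794), the pseudogene Rbm3-ps (0.0823), whose reads its parent gene may share, and Apod (0.0882), against a median difference of 0.221 over all these genes. Closest to Penk were Gdf10 (0.07), Thsd4 (0.0759) and Kcnc4 (0.0761), against a median of 0.196. For Pdyn they were Hspb8, Ell2 and Thy1, and for Ppp1r1b the clone 1700003D09Rik, Coa4 and Setmar. The profiles of Drd1 (Dcun1d3, an unnamed identifier and Csnk2a1), Drd2 (an unnamed identifier, the pseudogene Tmed10-ps and Nkd1), Adora2a (Dohh, Coq4 and Gmppb) and Foxp1 (Zfp37, Alkbh8 and Cask) varied little, with standard deviations of 0.0607 to 0.129 log2 units, against 0.206 for Tac1 and 0.179 for Penk. None of the 8 was among the compared genes, so that likeness of Tac1 to Penk does not enter. The smallest of 14803 differences must lie below their median, so setting them beside it is no test of likeness.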

How the data were processed

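Polyadenylated RNA was sequenced as paired ends in 10 libraries, per the labels. The submitters' processing notes name the aligner GSNAP and the build NCBIM37. Per the file headers, a deposited count holds the reads that aligned uniquely to 1 gene model, and the other deposited value is an RPKM adjusted by size factor (nRPKM). No source used here gives the annotation release or the strand setting, so overlapping or antisense genes may share reads. RefSeq (GRCm38.p6) named 24998 of 28059 identifiers, the 8 genes among them.

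The test was that of edgeR 4.0.16 (R 4.3.3, quasi-likelihood test, TMM, filterByExpr, 5 group means over all 10 libraries, 8 comparisons, Benjamini-Hochberg over 18671 genes, called under 0.05). The fit had 5 residual degrees of freedom. Standard errors come from the F statistic and 95% intervals from its degrees of freedom. A floor of 3 counts is 0.055 to 0.0938 CPM, for counting error only. The script was tested on simulated data. Libraries are numbered in accession order, which pairs nothing. The genes, the 19 lists and the alternatives (DESeq2 1.42.0, other scalings and filters, covariates, fewer libraries) were chosen with earlier results of these data known. Named genes were the 8, called or abundant list genes, and the 3 closest profiles; results of some list genes are not reported here.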

Additional observations from a re-analysis of the deposited data

How the results depend on the processing

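Over 12 alternatives for each of 64 log2 fold changes (8 genes, 8 comparisons), 690 of 768 values kept direction and side of the threshold, 20 values of the 3 called results were no longer called, 0 became called, and 58 values of uncalled results changed sign. In KO vs control the 2 calls became 1 with the Xist covariate, 0 without the libraries with high Xist, 0 with the HOX covariate and 0 (lowest and highest) in the fits without 1 library. In QKO vs KO the 1 call became 0 with library totals, 0 with the HOX covariate, 0 in a fit of the 2 groups alone, and 0 without any 1 library. The cause of each lost call was not tested. Fits with fewer libraries also have fewer degrees of freedom, and the part of this was not tested either. In the other 6 comparisons every alternative gave 0 calls. Over all genes, the 137 calls in KO vs control ranged from 23 (without KO 1) to 691 (2 groups alone), and the 240 in QKO vs KO from 75 (without KO 1) to 487 (no low-count filter).

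The mean log2 ratio of direct over indirect genes was 0.04 in control, 0.01 in KO, 0.19 in DKO, 0.22 in TKO and 0.14 in QKO. In summed CPM, which weights long transcripts more, it was -0.38, -0.39, -0.24, -0.22 and -0.26, and as a mean of log2 nRPKM -0.15, -0.13, 0.0435, -0.00929 and -0.0925, each in that order. On both scales single libraries of control or KO overlapped those of the other genotypes, unlike in summed nRPKM. No paired analysis was possible because the labels give no replicate numbers. Pdyn, at 142 to 307 counts a library, is limited most by depth.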

Other observations

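Pomc, the opioid precursor of the pituitary and hypothalamus, stood at 26.4 nRPKM in DKO 1 and at 3.11 in QKO 1, and between 0.624 and 1.23 in the other 8 libraries. Gh, the growth hormone gene of the pituitary, was at 187 nRPKM in DKO 1, 55.6 in QKO 1 and 1.41 or below in the other 8. Tac1 was 17.4 and 18.6 nRPKM in DKO 1 and DKO 2, and 20.03 and 20.4 in QKO 1 and QKO 2. Pdyn was 7.32 and 7.52 nRPKM in the DKO libraries and 6.01 and 4.21 in those of QKO.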
